A study of Rattus norvegicus with 3 samples.

Results

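Stromal cells that carried transcripts of Tac1, the gene for the precursor of substance P and neurokinin A, were selected from the P1 and P7 cochlear libraries. A cell was taken when it held 2 or more UMIs (molecules counted once each) of Tac1, fewer than 8 UMIs of Ramp3 and fewer than 10 UMIs of Cnmd per 10000 of its own UMIs, and at most 2 UMIs of the neuronal genes Stmn2, Nefl, Nefm and Snap25 together. The rule took 1039 cells at P1 and 747 cells at P7, which is 1786 of the 25360 kept cells of these 2 libraries, and they are called Tac1 cells here. Tac1, Ramp3, Cnmd and the neuronal genes therefore chose the cells, and their levels in these cells are given as a description only.

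The study sequenced single cells of cochlear tissue from untreated Sprague-Dawley rats at postnatal day 1, 7 and 14 (P1, P7 and P14), with pooled animals and 1 10x Genomics library for each age. The tissue was dissected as basal membrane, and the sample labels name the cell type as greater epithelial ridge cell. No group carried a transgene, deletion or drug. Kept cells had 501 to 4999 genes and under 25% of their UMIs on mitochondrial genes, and there were 12779 of them at P1, 12581 at P7 and 5281 at P14. As each age has 1 library, no difference between ages could be tested, and each interval below is an exact 95% interval of the counting error alone.

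Substance P and neurokinin A are short peptides that are cut out of a longer precursor, amidated and released, and they act through G protein coupled tachykinin receptors. Neprilysin, the product of Mme, is a membrane enzyme that breaks down tachykinins and enkephalins outside the cell. Tac1 is best known from sensory neurons and gut, while the mesenchyme of the cochlea is known for fibrocytes and for cells that lay down the collagens beneath the organ of Corti.

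The label was checked against marker lists. All 11 genes of a fibroblast and mesenchyme list were found in them, with a summed level of 5693 CPM at P1 (UMIs per 1e6 UMIs) and 7076 CPM at P7. This was below the 7247 and 8876 CPM of all other kept cells, and cells with 5 or more endothelial UMIs reached 4957 and 3877 CPM, so the sum alone did not set the Tac1 cells apart. The cochlear epithelium list reached 48.0 CPM at P1 and 222 CPM at P7, against 179 and 268 CPM in other cells. Of the 9 genes of the hair cell list, 4 were found in these cells at P1 and 2 at P7. Their summed level was 34.9 CPM at P1 and 25.4 CPM at P7, against 52.2 and 21.5 CPM in other cells. Myo7a, Atoh1, Gfi1, Slc26a5 and Tmc1 were at 0 UMIs at both ages. The share of Tac1 cells with 3 or more UMIs of the epithelium list was 2.98% at P1 and 8.03% at P7, and that with 3 or more of the mesenchyme list was 100% and 99.9%. The mesenchyme share tells little, as such a cut is easily met at this depth. Even cells with 5 or more macrophage UMIs held that list at 2672 CPM at P1 and 3697 CPM at P7. The sample labels name greater epithelial ridge cells. The epithelium list is not specific to that ridge, so these shares do not settle the label. The paper describes Tac1 as more abundant in its ridge cluster 9. Its in situ hybridization found Tac1 low at P1, raised in the ridge at P7 and in the hair cell region at P14. Otor, which the paper counts among characteristic genes of its ridge clusters, was at 3953 CPM at P1 and 5975 CPM at P7 in the Tac1 cells. In cells with 0 Tac1 UMIs that met the other limits it was at 6909 and 5899 CPM, so Otor did not set the Tac1 cells apart.

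The Tac1 cells made up 8.13% of the kept cells at P1 (7.66% to 8.62%) and 5.94% at P7 (5.53% to 6.36%). The log2 ratio of these shares was -0.45 (-0.59 to -0.32). This difference lay in the Ramp3 limit of the rule. Ramp3 codes for a membrane protein that changes what the calcitonin family receptors bind, and of the cells with 2 or more Tac1 UMIs the limit set aside 51 (4.37%) at P1 and 363 (31.9%) at P7. The number of cells with 2 or more Tac1 UMIs was nearly the same at both ages, 1168 at P1 and 1137 at P7, and without the Ramp3 and Cnmd limits the shares were 8.70% at P1 (8.22% to 9.20%) and 8.91% at P7 (8.42% to 9.42%). Over all kept cells Tac1 stood at 74.2 CPM at P1 (72.5 to 75.9) and 76.7 CPM at P7 (74.96 to 78.5). The paper's in situ hybridization was instead reported as low at P1 and raised in the ridge at P7. It is an unlike measure, as counts over a whole library do not show location.

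**Figure D1:**
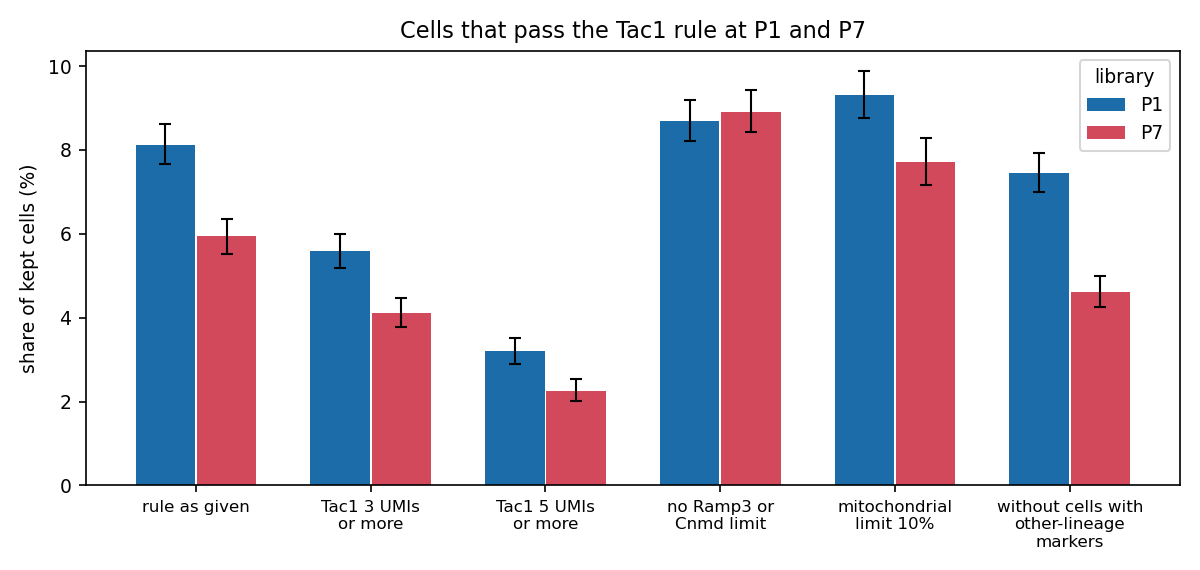
Share of kept cells in percent (y axis) that passed the Tac1 rule at P1 (blue) and P7 (red), as given and under other limits (x axis), with exact binomial 95% intervals as error bars. P7 lies below P1 under every limit drawn except where the Ramp3 and Cnmd limits are dropped, where the shares are 8.70% and 8.91%.

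The cells just inside and just outside the Ramp3 limit differed by degree. At P7 the 256 Tac1 cells with 4 to 8 Ramp3 UMIs per 10000 held Tac1 at 697 CPM, Mme at 261 CPM, Spp1 at 673 CPM and Sfrp4 at 115 CPM. The 156 cells with 8 to 12 Ramp3 UMIs per 10000, which the rule set aside, held Tac1 at 605 CPM, Mme at 209 CPM, Spp1 at 463 CPM and Sfrp4 at 67.3 CPM. Dcn, which codes for the small collagen-binding proteoglycan decorin, stood at 3064 CPM inside and 3722 CPM outside the limit. At P1 the same bands held 141 and 31 cells, with Mme at 371 CPM inside and 320 CPM outside.

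Tac1 itself was unevenly spread among the cells. The median was 4 UMIs per cell at both ages, the highest cell had 52 UMIs at P1 and 78 at P7, and exactly 2 UMIs were found in 326 cells (31.4%) at P1 and 230 cells (30.8%) at P7. The 10% of cells with the most Tac1 held 31.7% of the Tac1 UMIs at P1 and 35.9% at P7. The summed level was 631 CPM (615 to 648) at P1 and 620 CPM (602 to 639) at P7, against 19.6 and 33.5 CPM in all other kept cells. The Tac1 cells held 75.9% of all Tac1 UMIs of kept cells at P1 and 59.6% at P7.

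The background of Tac1 was read in a cell type that should lack it. After each cell was thinned to 2000 UMIs, 68.7% of the Tac1 cells at P1 and 65.4% at P7 still held a Tac1 UMI (100% by the rule before thinning). Among cells with 5 or more UMIs of macrophage genes, a cell type that should lack Tac1, the thinned share was 0.575% at P1 and 5.56% at P7, beside 2.98% and 4.73% of all other kept cells, and 2 of those 182 cells at P1 and 9 of 194 at P7 were Tac1 cells themselves. The level of Tac1 over the whole gate was 3.93 CPM at P1 and 69.4 CPM at P7, beside 76.7 CPM in all kept cells at P7. Most of the P7 level came from the 9 Tac1 cells, as the other cells of the gate held 22 of its 112 Tac1 UMIs. Without the Tac1 cells, which were picked by their Tac1 counts, the gate was at 0.664 CPM at P1 and 14.7 CPM at P7. The median depth was 7440 UMIs at P1 and 8347 UMIs at P7 in Tac1 cells, and 7590 and 7328 UMIs in the macrophage gate.

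Other genes followed the Tac1 count of a cell in steps, including across cells with 0 or 1 Tac1 UMI that met the other limits. At P1, Mme stood at 132 CPM in cells with 0 Tac1 UMIs, 275 CPM with 1, 423 CPM with 2 and 632 CPM with 10 or more. Spp1, which codes for the secreted phosphoprotein osteopontin, stood at 156, 435, 659 and 1135 CPM in the same cells. Both genes thus continued to climb above the limit of 2 UMIs that defined the cells. Penk, the precursor of the enkephalin opioid peptides, went from 25.8 CPM with 0 Tac1 UMIs to 92.4 CPM with 2 and 196 CPM with 10 or more (172 to 223).

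At P7 the ends of the range were in the same order, while neighbouring steps were less even. Mme went from 60.3 CPM with 0 Tac1 UMIs to 218 CPM with 2, 212 CPM with 3 to 4 and 351 CPM with 10 or more (316 to 388). Penk was at 25.9 CPM with 2 Tac1 UMIs, 22.7 CPM with 3 to 4, 55.7 CPM with 5 to 9 and 47.5 CPM with 10 or more. Spp1 went from 97.1 CPM with 0 to 396 CPM with 2 and 1049 CPM with 10 or more. Igfbp3, which codes for a carrier of insulin-like growth factors, went from 147 to 285 and 595 CPM in the same cells. Dcn reached 3315 CPM in the P7 cells with 10 or more Tac1 UMIs, against 1475 CPM in those of P1. Foxd1, a forkhead transcription factor, stood at 219 CPM with 2 Tac1 UMIs and 324 CPM with 10 or more at P1, and at 186 and 283 CPM at P7.

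Not every stromal gene followed Tac1. Otor, which codes for the secreted cochlear protein otoraplin, went the other way at P1, from 6909 CPM with 0 Tac1 UMIs to 4630 CPM with 2 and 3378 CPM with 10 or more. At P7 Otor was highest in cells with 2 Tac1 UMIs (7251 CPM) and lower in those with 10 or more (4131 CPM). Sfrp4 at P1 lay between 10.3 and 19.9 CPM in all 6 bins, with no order. At P7, where its level was higher, Sfrp4 went from 56.4 CPM with 0 Tac1 UMIs to 124 CPM with 1 and 171 CPM with 2. It was then at 151 CPM with 5 to 9 and 215 CPM with 10 or more.

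**Figure D2:**
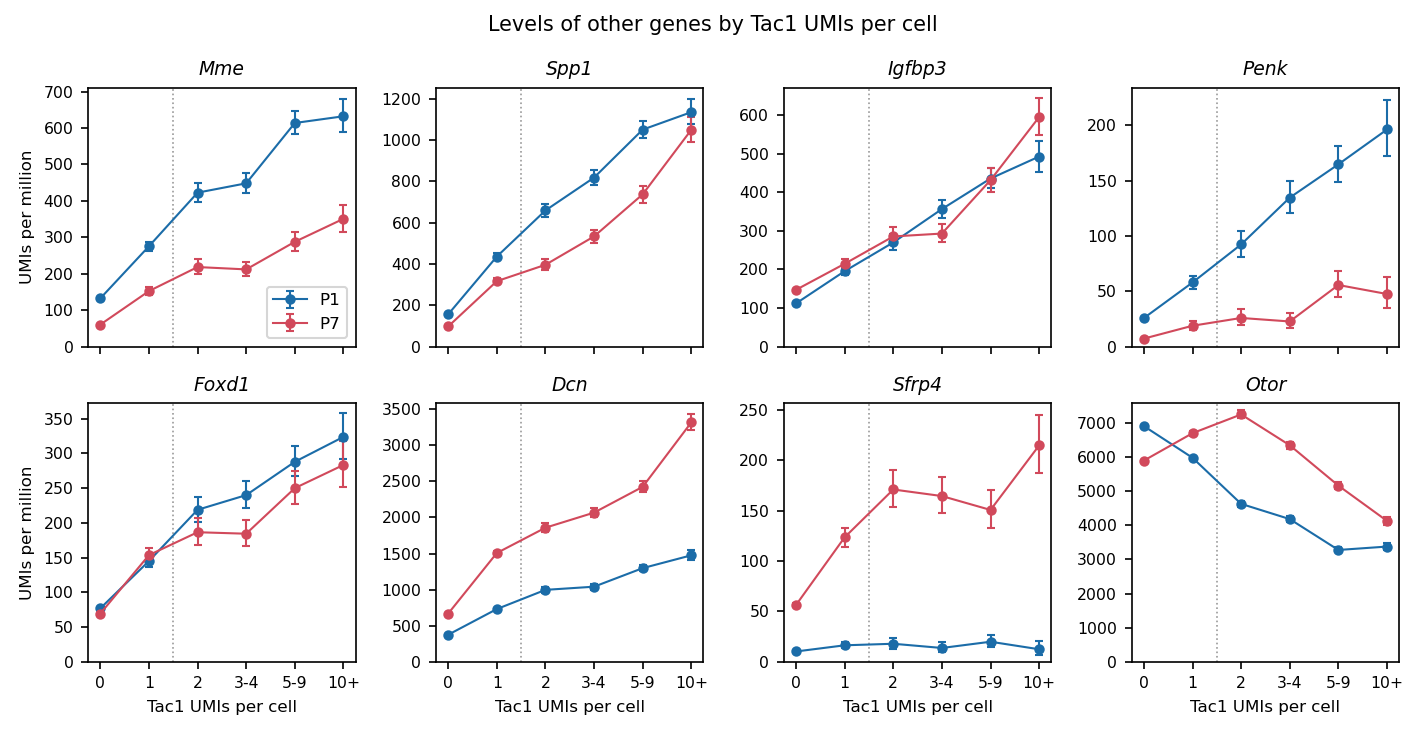
Level in CPM (y axis) of 8 genes in cells grouped by Tac1 UMIs per cell (x axis) at P1 (blue) and P7 (red), with exact Poisson 95% intervals as error bars; the dotted line marks the lower Tac1 limit of the rule. Mme, Spp1, Igfbp3, Foxd1 and Dcn are higher in cells with 10 or more Tac1 UMIs than in those with 2 at both ages, Penk has the same order at P1 from 92.4 to 196 CPM, and Otor at P1 is lower.

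Some pairs of these genes were found together in a larger share of cells, and others were not. Among P1 cells thinned to 2000 UMIs, Penk was found in 23.3% of those with an Mme UMI (19.8% to 27.1%, 537 cells) and in 11.2% of those without (8.61% to 14.4%, 498 cells), whereas at P7 the shares were 7.26% (4.29% to 11.4%) and 6.52% (4.53% to 9.04%), with overlapping intervals. Penk was found in 7.23% of P7 cells with a Foxd1 UMI and 6.53% of those without. Ibsp, which codes for bone sialoprotein, was found in 13.2% of cells with a Spp1 UMI and 1.40% of those without at P1, and in 12.8% and 2.62% at P7. At P7, Foxd1 was found in 151 of 320 cells with a Spp1 UMI (41.6% to 52.8%) and in 84 of the 420 without (16.3% to 24.2%). Sfrp4 at P7 was found in 30.8% of cells with an Mme UMI and 15.2% of those without. These shares are over cells of 1 library each and describe those libraries.

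Against all other kept cells, 20 of 5768 genes tested (0.347%) were 2-fold or more higher in the Tac1 cells at both ages, with 10 CPM added to each level. The cells were chosen by their Tac1 counts, so this count describes the selection and carries no test. After Tac1, the first was Mme at 512 CPM at P1 and 254 CPM at P7, against 132 and 67.7 CPM in other cells. B3gat2, which codes for a glucuronosyltransferase that makes the HNK-1 carbohydrate, stood at 114 and 66.0 CPM against 33.9 and 20.7 CPM. Penk stood at 139 and 35.7 CPM against 25.7 and 8.48 CPM.

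The others in the first 15 coded for matrix proteins, enzymes, secreted factors and transcription factors, among others. Sulf2, an enzyme that removes sulfate from heparan sulfate outside the cell, was at 124 CPM at P1 and 98.8 CPM at P7 against 45.8 and 36.2 CPM. Gdf10, a ligand of the TGF-beta superfamily, was at 70.3 and 128 CPM against 23.0 and 48.9 CPM. Col9a1, a chain of the cartilage-type collagen IX, was the most abundant at 3826 and 7216 CPM against 1632 and 3269 CPM. Foxp2 was at 153 and 163 CPM against 64.6 and 55.9 CPM, and Foxd1 at 258 and 217 CPM against 80.6 and 94.6 CPM. Cpm (a membrane carboxypeptidase gene), C1qtnf5, Igfbp3, Fndc3a, Ibsp and Col8a1 completed the set.

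**Figure D3:**
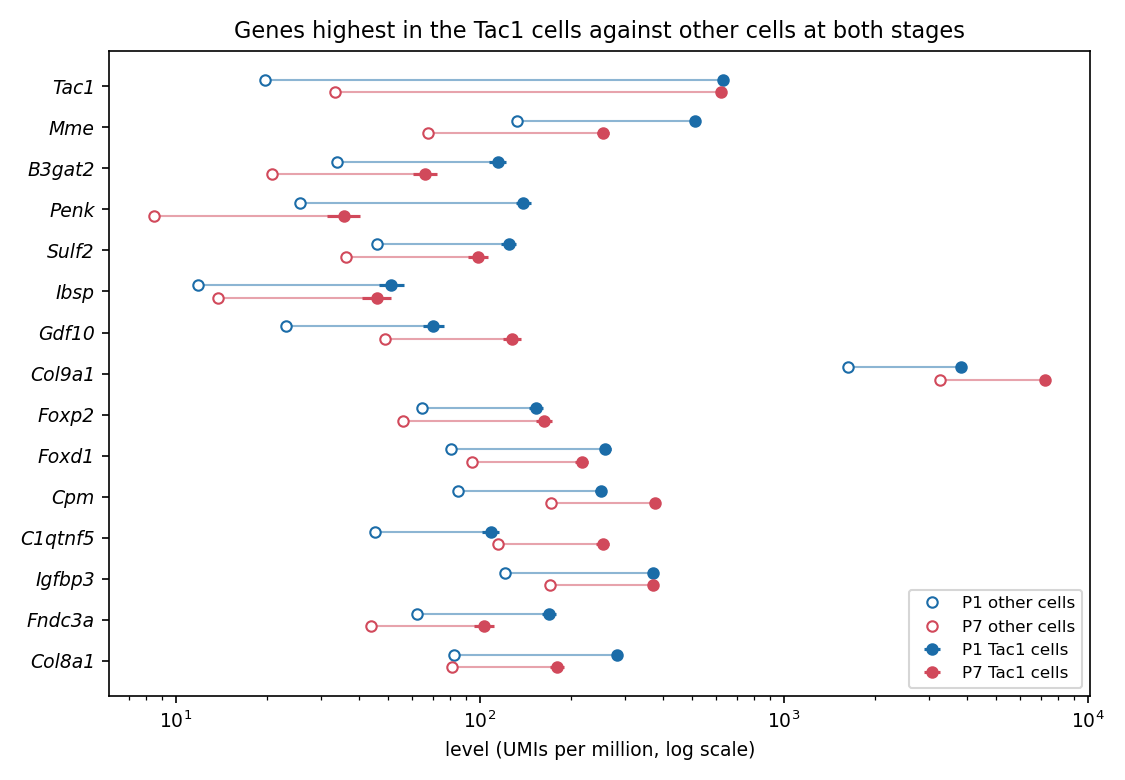
Level in CPM on a log axis (x axis) of the 15 genes with the highest lower-of-both-ages ratio (y axis), in Tac1 cells (filled) and all other kept cells (open) at P1 (blue) and P7 (red), with exact Poisson 95% intervals on the filled points. Each filled point lies to the right of its open point, and Col9a1 is the most abundant, at 3826 CPM at P1 and 7216 CPM at P7.

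Of the 4 marker genes given for these cells, Tac1, Mme and Col8a1 were in that set and Col6a1 was not. Col8a1, a network-forming short-chain collagen, was at 283 CPM at P1 and 180 CPM at P7, against 82.1 and 80.7 CPM in other cells. Col6a1 was at 94.8 CPM (88.5 to 102) at P1 and 30.5 CPM (26.5 to 34.9) at P7, against 51.3 and 24.9 CPM. At P7 Col6a1 therefore differed from other cells by 0.21 on the log2 scale, and it was higher in the cells with high Ramp3 and no Tac1, at 64.1 CPM.

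The tachykinin list covered the peptide genes, their processing enzymes, their breakdown and their receptors, and none of its 8 genes above the low-value limit differed 2-fold between ages. Among the processing enzymes, Cpe (carboxypeptidase E) was at 171 CPM at P1 and 194 CPM at P7, Pam (the amidating enzyme) at 110 and 65.4 CPM, and Furin at 58.4 and 109 CPM. The prohormone convertases of secretory granules were sparse, with 31 and 22 UMIs of Pcsk1 and 17 and 27 UMIs of Pcsk2 over all Tac1 cells at P1 and P7. Chga and Chgb, which code for granins of secretory granules, had 19 and 18 UMIs at P1 and 1 and 2 UMIs at P7. Tacr1, the substance P receptor gene, had 0 UMIs at both ages, which allows up to 0.343 CPM at P1 and 0.437 CPM at P7. Tacr2 had 0 and 1 UMIs, and Tacr3, the neurokinin B receptor gene, had 30 and 25 UMIs.

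Between the ages, 248 of the 5867 genes above the low-value limit (4.23%) were 2-fold or more higher in the Tac1 cells at P7 and 131 (2.23%) were 2-fold or more lower. In all other kept cells 227 of the same genes (3.87%) were higher and 111 (1.89%) lower. Of the genes called in Tac1 cells, 153 of those higher (61.7%) and 76 of those lower (58.0%) were also called in the other cells. The median log2 ratio of all 5867 genes was 0.11 in Tac1 cells and 0.10 in other cells. When each gene was set against that median, 176 genes were higher and 201 lower, so that the share of calls that were higher went from 65.4% to 46.7%. Values below are as measured, with the median of 0.11 not taken off.

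**Figure D4:**
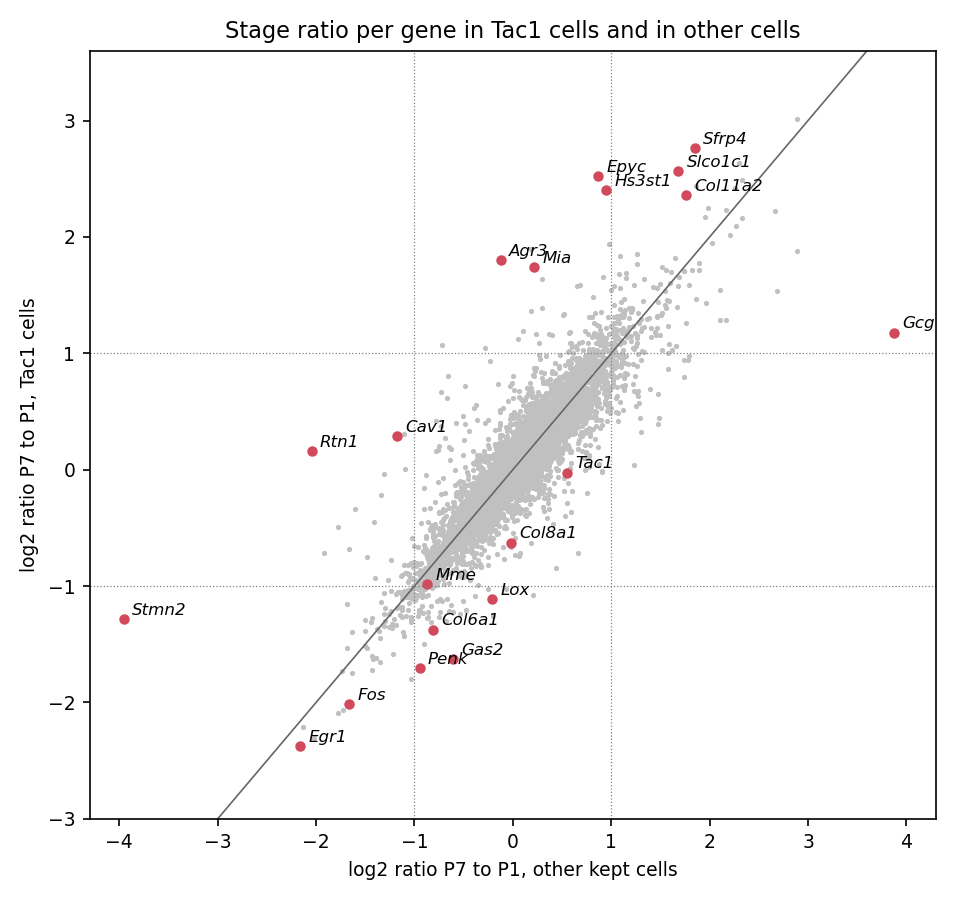
Log2 ratio of the level at P7 to that at P1 with 10 CPM added, in all other kept cells (x axis) and in Tac1 cells (y axis), for the 5867 genes above the low-value limit (grey), with named genes in red. The solid line marks equal ratios and dotted lines mark 2-fold; most genes lie along the line, Penk, Gas2 and Lox lie below it and Sfrp4, Slco1c1 and Hs3st1 above it.

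Genes of Wnt inhibitors and of mineralized matrix were among the highest at P7. Sfrp4, which codes for a secreted inhibitor of Wnt signaling, was at 16.6 CPM (14.0 to 19.5) at P1 and 171 CPM (161 to 181) at P7, a log2 ratio of 2.77, against 10.0 and 62.0 CPM in other cells. After thinning it was found in 3.67% of Tac1 cells at P1 and 20.1% at P7 (17.3% to 23.2%), and in 0% (0% to 2.10%) and 3.33% of the macrophage gate. The unthinned shares of Tac1 cells were 8.76% and 47.7%. Of the 38 Wnt pathway genes in the matrices 21 passed the low-value limit, 5 were higher (Lrp5, Notum, Sfrp4, Sostdc1 and Wif1) and 0 lower, with a median log2 ratio of 0.48 against 0.27 in other cells. In other cells 5 of the 21 were higher and 0 lower as well, so the count was not particular to the Tac1 cells. Wif1, another secreted inhibitor, was at 23.0 and 76.4 CPM. Sfrp1, a relative of Sfrp4, was at 141 and 69.8 CPM, a log2 ratio of -0.92, but 49.5% of its P7 UMIs lay in 10 cells. When cells with markers of other lineages were left out, its log2 ratio was -2.29 with narrower lists and -1.76 with wider lists. Both are past 2-fold lower. Notum rested on few cells, with 62.0% of its P7 UMIs in 10 cells.

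Dlx5, a homeobox transcription factor of bone and inner ear, had 13 UMIs (1.49 CPM) in the Tac1 cells at P1 and 358 UMIs (52.2 CPM) at P7. The other kept cells held it at 1.43 and 31.6 CPM. Dmp1 (dentin matrix protein) was at 12.8 and 112 CPM, and Phex, an endopeptidase of bone cells, at 4.80 and 33.2 CPM, with 5.67 and 65.0 CPM and 1.37 and 12.7 CPM in other cells. Within the osteoblast list the levels ranged widely. Bglap (osteocalcin) had 9 and 3 UMIs, Sp7 had 1 and 2, and Ifitm5 had 0 at both ages, while Spp1 was at 879 and 623 CPM, Col1a1 at 194 and 226 CPM, Pth1r at 55.0 and 73.3 CPM and Ibsp at 51.2 and 45.8 CPM. In all, 6 of the 14 genes passed the low-value limit, 2 were higher (Dmp1 and Phex) and 0 lower.

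Several genes of the cartilage-type collagen list were higher at P7 in the Tac1 cells. Of its 18 genes 11 passed the low-value limit, 5 were higher (Col11a1, Col11a2, Col9a2, Matn4 and Sox9) and 0 lower, and the median log2 ratio was 0.91 against 1.00 in other cells. In other cells 5 of the 11 were also higher and 0 lower. Col11a2 was at 37.1 CPM at P1 and 232 CPM at P7, Col9a2 at 605 and 1974 CPM, and Matn4 (matrilin-4) at 293 and 891 CPM. Col11a1 was at 336 and 863 CPM in Tac1 cells, whereas it was at 720 and 406 CPM in cells with 2 or more UMIs each of Crym and Isyna1 and no Tac1. Acan, the cartilage proteoglycan aggrecan, had 6 and 33 UMIs, and Matn1 had 1 and 0.

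Of the fibril and network collagens none was called higher. Of the 17 genes of the interstitial list in the matrices 14 passed the low-value limit, 0 were higher and 2 lower, with a median of -0.0011 on the log2 scale. The lower ones were Col5a1, at 75.8 and 25.7 CPM, and Col6a1. Col1a1 was at 194 and 226 CPM and Col3a1 at 830 and 1382 CPM. Of the basement membrane list 13 of 16 genes passed, 0 were higher and 1 lower, which was Col4a2 at 140 and 59.9 CPM, while Col4a1 was at 740 and 705 CPM. Sparc, a collagen-binding matrix protein gene of the same list, was at 2057 and 4112 CPM, just under 2-fold with 10 CPM added.

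Among elastic fibre genes, 16 of 22 passed, 0 were higher and 1 was lower. It was Lox, the lysyl oxidase that cross-links collagen and elastin, at 205 CPM (196 to 215) at P1 and 89.5 CPM (82.6 to 96.9) at P7, against 81.3 and 68.7 CPM in other cells. Of 29 protease and inhibitor genes in the matrices 17 passed, 1 was higher and 0 lower, and the higher one was Htra1, a secreted serine protease gene, at 67.2 and 230 CPM. Of 12 small leucine-rich proteoglycan genes 6 passed and 1 was higher. That was Epyc (epiphycan), at 14.7 and 132 CPM, but 80.8% of its P7 UMIs lay in 10 cells. Dcn was at 1159 and 2286 CPM, a log2 ratio of 0.97, and Ogn (osteoglycin) at 1197 and 782 CPM.

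The opioid peptide gene that accompanied Tac1 was lower at P7. Penk was at 139 CPM (131 to 147) at P1 and 35.7 CPM (31.4 to 40.5) at P7, a log2 ratio of -1.70, against -0.95 in other cells. A Penk UMI was found in 17.5% of thinned Tac1 cells at P1 (15.2% to 19.9%) and 6.76% at P7 (5.06% to 8.81%), against 0.575% and 0% (0% to 2.03%) of the macrophage gate. Mme had a log2 ratio of -0.98, just short of 2-fold, and one of -1.09 when set against the median gene. Its thinned share was 51.9% at P1 (48.8% to 55.0%) and 31.6% at P7 (28.3% to 35.1%). Over the 21 genes of the calcitonin and peptide list in the matrices 8 passed, 2 were higher (Gcg and Ramp1) and 1 lower (Penk). Gcg (glucagon) was at 22.4 CPM in Tac1 cells at P7, below the 182 CPM of the macrophage gate.

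Hormone and growth factor lists had few called genes each. Slco1c1, a thyroxine transporter gene, was at 17.9 CPM at P1 and 155 CPM at P7, and Thrb, a thyroid hormone receptor gene, at 9.37 and 39.4 CPM, while the other receptor gene Thra was at 309 and 228 CPM. The thinned share with Slco1c1 was 2.90% and 23.8% in Tac1 cells, 9.75% and 32.1% in cells with 5 or more endothelial UMIs, and 0.575% and 9.44% in the macrophage gate. Igfbp4 was at 1451 and 3168 CPM and was the 1 called gene of the insulin-like growth factor list, of which 9 of 19 genes passed. Igfbp3 stayed level at 371 and 372 CPM, and Igf1 was at 291 and 203 CPM. In the BMP and TGF-beta list 18 of 38 genes passed and 2 were higher, Bmp5 at 29.8 and 74.5 CPM and Bambi, a decoy receptor gene, at 54.3 and 182 CPM.

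Of 46 growth factor genes 24 passed, 3 were higher (Angptl4, Ccn4 and Fgfr2) and 2 lower (Angpt1 and Ccn2). Ccn2, which codes for connective tissue growth factor, was at 317 and 145 CPM. Of the 25 fibrocyte and connexin genes 17 passed, 5 were higher (Aqp1, Car2, Car3, Gjb6 and S100b) and 0 lower, with a median of 0.67 against 0.20 in other cells. In other cells 4 of the 17 were higher and 2 lower. Car3 rested on few cells, with 77.7% of its P7 UMIs in 10 cells, and its log2 ratio was 0.55 without cells of the wider other-lineage lists. Aqp1, a water channel gene, was at 34.4 and 130 CPM against 26.2 and 58.1 CPM. Among 43 otic mesenchyme transcription factor genes in the matrices 20 passed, Dlx5 and Scx were higher and Foxp1 lower. Pou3f4, the otic mesenchyme factor whose loss causes deafness, was at 550 and 405 CPM, and Tbx18 at 333 and 312 CPM.

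The immediate early genes were lower at P7 in the Tac1 cells and beyond them. Of the 24 immediate early and heat shock genes in the matrices 18 passed, 0 were higher and 8 lower (Btg2, Egr1, Fos, Fosb, Ier2, Jun, Junb and Jund), with a median of -0.88 against -0.63 in other cells. In other cells 1 of the 18 was higher and 3 were lower. Egr1 was at 740 and 135 CPM and Fos at 1244 and 300 CPM, with 544 and 114 CPM and 1130 and 349 CPM in other cells. The part of tissue handling in this was not tested. Of 14 imprinted growth genes 10 passed, 0 were higher and 2 lower, Mest at 51.3 and 16.3 CPM and Plagl1 at 43.2 and 15.6 CPM. The linker histone genes Hist1h1e and Hist1h1b, at 342 and 66.2 CPM and 106 and 17.2 CPM, were also among the lowest.

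The remaining lists had 3 called genes at most. Of 19 lipid and metabolism genes 10 passed and 3 were higher, Apoe at 675 and 2019 CPM, Clu at 56.1 and 167 CPM and Cst3 at 1009 and 2290 CPM, and 0 were lower. For Clu, 51.2% of the P7 UMIs lay in 10 cells. Of 11 thyroid hormone genes 5 passed, and Slco1c1 and Thrb were the called ones. In the retinoic acid list Rbp4 was the 1 called gene of the 11 that passed, in the axon guidance list Plxnd1 of 12, in the chemokine and complement list Tnfrsf11b (the RANKL decoy receptor gene) of 7, and in the receptor list Ednrb of 7, all of them higher at P7. Of the 12 matrix glycoprotein, 10 glycolysis and 4 ion channel genes that passed, 0 were called. Of 9 proliferation genes that passed, Cdk1 was higher and Top2a lower.

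Other named genes at the extremes of the comparison were less tied to one group. Higher at P7 were Cd9, a tetraspanin gene, at 42.3 and 284 CPM, Hs3st1, a heparan sulfate sulfotransferase gene, at 4.57 and 67.2 CPM, Cpz at 4.91 and 60.9 CPM, Fam180a at 38.1 and 216 CPM, Pmepa1 at 25.9 and 158 CPM, Kit, the stem cell factor receptor gene, at 9.14 and 76.4 CPM, and Agt (angiotensinogen) at 17.1 and 111 CPM. Lower at P7 were Phldb2 at 55.1 and 8.75 CPM, Smarcc1 at 103 and 24.2 CPM, Cdv3 at 287 and 84.4 CPM, Thrap3 at 214 and 62.4 CPM, Gas2 at 113 and 30.0 CPM and Epb41l2 at 63.9 and 14.1 CPM. All 13 had the same sign in other cells, where Cd9 was at 126 and 674 CPM and Smarcc1 at 95.7 and 29.3 CPM.

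Markers of other cell types differed between the ages too. All 7 glia genes were found, with a summed level of 441 CPM at P1 and 1597 CPM at P7 in Tac1 cells and 412 and 1430 CPM in the macrophage gate. Endothelial genes summed to 56.9 and 92.1 CPM, macrophage genes to 36.00 and 115 CPM and erythroid genes to 1113 and 1635 CPM. Of the neutrophil list Mpo and Elane, of the melanocyte list Tyr and Tyrp1, and of the lymphocyte list Cd3e, Cd3d and Nkg7 were at 0 at both ages. Leaving out 87 Tac1 cells at P1 and 166 at P7 with such markers on narrower lists, chosen after the data were seen, gave 237 genes higher and 133 lower, of which 205 and 117 were among the calls above. Agr3, Epyc, Mia, Notum, Cdk1 and Col4a2 were then no longer 2-fold apart, while Sfrp4, Dlx5, Dmp1, Penk and Lox were. Epyc is itself a gene of the cochlear epithelium list, so its change can follow from leaving out cells by their own Epyc UMIs. Under the wider lists, which left 644 and 97 cells, the log2 ratio of Lox was -0.57 and no longer 2-fold.

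Dividing cells were a small share at both ages. With 10 proliferation genes, 8.12% of thinned Tac1 cells at P1 (6.52% to 9.95%) and 6.76% at P7 (5.06% to 8.81%) held 2 or more UMIs, against 7.88% and 8.36% of other cells, so the intervals overlapped. The unthinned shares were 14.0% and 12.3%. Top2a was at 137 and 57.1 CPM and Mki67 at 99.2 and 46.6 CPM, whereas Cdk1 had 350 and 620 UMIs (90.4 CPM at P7). Without the 145 and 92 Tac1 cells that held 2 or more of these UMIs, 261 genes were higher and 132 lower.

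Of the 6 groups compared, the cells with high Ramp3 and no Tac1 had the profile most like that of the Tac1 cells. Over 5867 genes of 1 pooled profile each, Spearman's rho with the 247 Ramp3 cells at P1 was 0.948 and with the 1544 at P7 was 0.950. It was 0.927 and 0.939 with Crym and Isyna1 cells, 0.893 and 0.917 with cells with 10 or more Cnmd UMIs per 10000, 0.901 and 0.890 with cells with 2 or more Aldh1a2 UMIs, 0.878 and 0.901 with the endothelial gate, and 0.742 and 0.838 with the macrophage gate. At P7 the endothelial gate thus lay above the Aldh1a2 cells. The same measure between Tac1 cells of P1 and of P7 was 0.855. All these profiles share abundant housekeeping genes, and those of 1 age share a library.

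Penk separated the Tac1 cells from the Ramp3 cells in level and in its ratio between the ages. Penk was at 8.30 and 8.77 CPM in Ramp3 cells, at 13.1 and 6.80 CPM in Crym and Isyna1 cells, and at 5.75 and 2.77 CPM in Aldh1a2 cells. Spp1, at 879 and 623 CPM in Tac1 cells, was at 227 and 165 CPM in Ramp3 cells and 81.2 and 63.6 CPM in Cnmd cells. Sfrp4 at P7 was at 171 CPM in Tac1 cells, 91.5 CPM in Cnmd cells, 48.5 CPM in Ramp3 cells and 25.1 CPM in Crym and Isyna1 cells. Lox went from 110 to 239 CPM in Aldh1a2 cells, against its lower level at P7 in Tac1 cells.

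**Figure D5:**
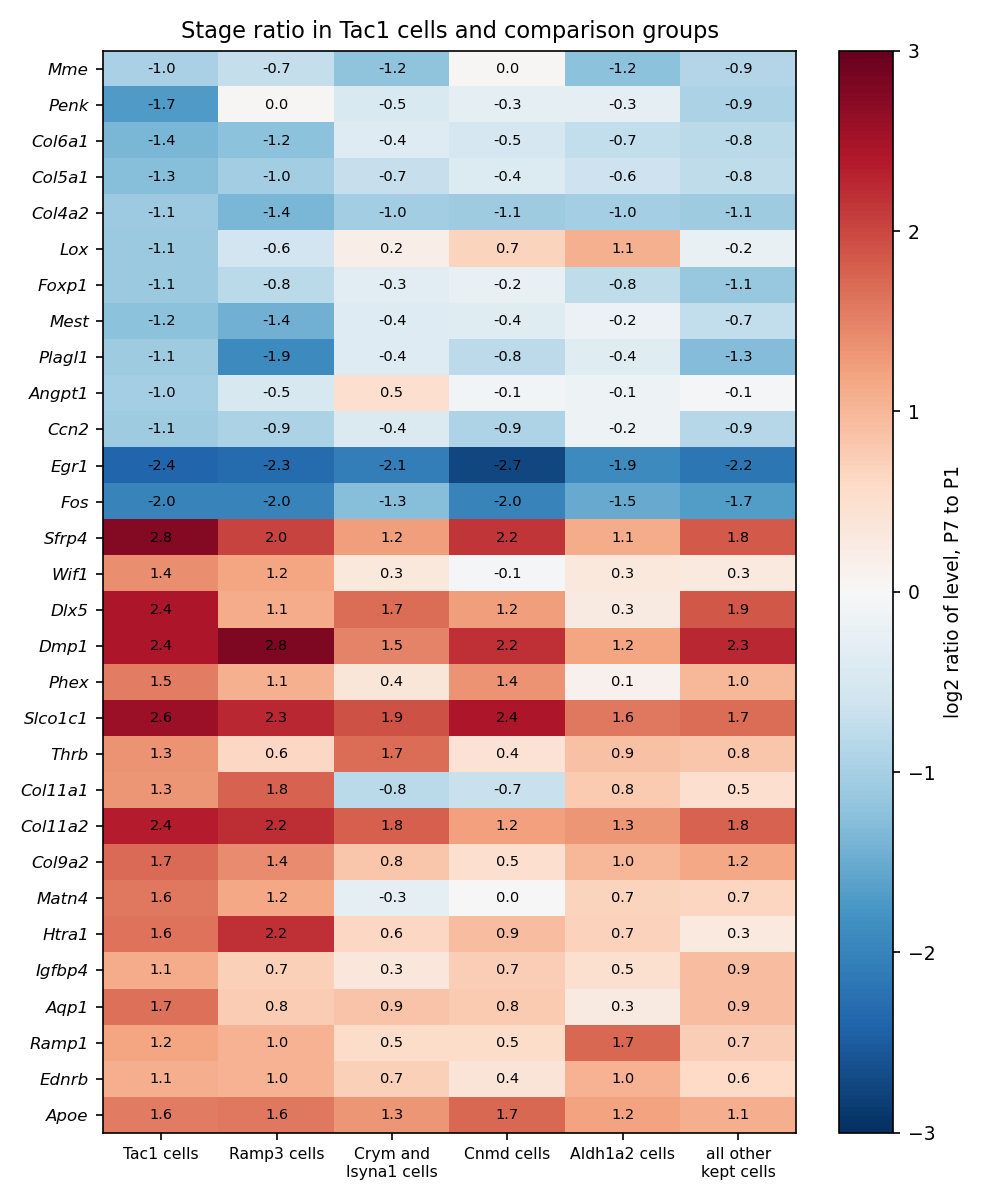
Log2 ratio of the level at P7 to that at P1 with 10 CPM added (color and number) for 30 genes named in the text (rows) in Tac1 cells, in 4 groups of cells without Tac1 UMIs and in all other kept cells (columns). Egr1 and Fos are lower at P7 in all columns, Slco1c1 and Apoe are higher in all columns, and Penk and Lox differ between columns. Penk is near or below the 10 CPM added in Ramp3, Crym and Isyna1, and Aldh1a2 cells, which limits its ratio there.

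Set against the ratio in all other kept cells, 30 of 5867 genes (0.511%) were 2-fold or more higher and 11 (0.187%) 2-fold or more lower in the Tac1 cells. Among the largest differences, Gcg was at a log2 ratio of 1.18 in Tac1 cells and 3.87 in other cells, Cav1 at 0.29 and -1.18, Mia at 1.74 and 0.22, and Rab3a at 1.07 and -0.72. C1qa, Rtn1, Agr3, Epyc and the rule gene Stmn2 were also among them. All 201 P7 UMIs of Agr3 lay in 6 Tac1 cells, 81.4% of those of Mia in 10 cells, and all 66 P1 UMIs of C1qa in 7 cells.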

How the data were processed

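The authors sequenced 10x Genomics 3' libraries of pooled rats, aligned reads to rn6 with Cell Ranger (3.1.0 in the matrix headers) and deposited UMI counts per gene and barcode, not normalized. The rule for calling cells was not given in the sources used here. The kept cells held 98005495 UMIs at P1, 93080129 at P7 and 11641065 at P14. Kept P1 and P7 cells shared 53 barcodes, and none was a Tac1 cell in both. No clustering or doublet caller was used, and doublets were approached through marker lists.

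Counts were summed over the Tac1 cells of a library and divided by their total to give CPM. Genes needed 20 CPM at either age and 50 UMIs. A gene was called at 2-fold with 10 CPM added, and a gene also needed a UMI in 10% of the cells for the comparison with other cells. Comparison groups held 0 Tac1 UMIs. Intervals were exact Poisson (levels) or Clopper-Pearson (shares), at 95%, and cover counting error only. For 0 counts, 3 counts were taken as the upper limit. Cells were thinned to 2000 UMIs with seed 1. No test between ages was made, since each age has 1 library and cells are not replicates.

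The named genes are the label markers and rule genes, the 15 highest and 15 lowest ratios between the ages, the 15 highest ratios over other cells, the 10 largest differences from other cells, and, of each of 27 gene lists, called genes and the 4 most abundant; genes known only by an identifier were not named, and some genes under the rule are not reported here. Beside these, listed genes with few or 0 UMIs were chosen after their values were seen. The cells, lists and rules were chosen with earlier results of these data known. Of 730 listed genes 700 are in the matrices, and the others were not analysed here. Alternatives covered the Tac1 minimum, the Ramp3 and Cnmd limits, the mitochondrial limit, marker exclusions, the CPM added, the low-value limit and the scaling. The steps were checked on simulated data. Python 3.11.15 was used with numpy 2.4.6, scipy 1.17.1, pandas 2.3.3 and matplotlib 3.10.9.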

Additional observations from a re-analysis of the deposited data

Results flagged for a closer look

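At P14 the kept cells held 20 Tac1 UMIs in 5281 cells (1.72 CPM), a library outside the comparison of P1 with P7, and this lies above the limit of 0.258 CPM that a count of 0 allows. Only 3 P14 cells passed the rule, with 9 Tac1 UMIs, and together they carried 14 Abcc9 and 8 Rgs5 UMIs, genes of pericytes. The median P14 cell had 1614 UMIs outside these cells, against 6765 at P7.

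Agr3 had a log2 ratio of P7 to P1 of 1.80 in Tac1 cells and -1.60 in Cnmd cells, and the P7 UMIs in Tac1 cells came from 6 cells. Lox had a log2 ratio of -1.11 in Tac1 cells and 1.06 in Aldh1a2 cells. Both were noted because the groups lay on opposite sides of 2-fold, and with 1 library per age the differences were not tested.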

How the results depend on the processing

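The log2 ratio of the shares was 0.034 without the Ramp3 and Cnmd limits, the reverse direction. It was -0.71 with 2 Tac1 UMIs required after thinning, -0.27 with a mitochondrial limit of 10%, -2.71 without cells with 3 or more UMIs of the other-lineage lists and -0.69 with narrower lists. The first of these exclusions removed 38.0% at P1 and 87.0% at P7 and left 97 cells at P7. Genes higher at P7 numbered 487 with 1 CPM added, 52 with 50 CPM added and 148 with a minimum of 50 CPM, where fewer genes entered. Genes lower at P7 numbered 263 with 1 CPM added, 31 with 50 CPM added, 197 without other-lineage cells, 208 without mitochondrial and ribosomal genes and 201 centred on the median. Genes higher than in other cells at both ages numbered 32 with 5 Tac1 UMIs required, 36 with 2 after thinning, 11 with the mitochondrial limit of 10%, 33 without other-lineage cells, 37 with 1 CPM added and 3 with 50 CPM added. Where the construction does not show it, the cause was not tested.

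Of 82 named genes called between the ages, 41 were under 2-fold with 50 CPM added, 21 without other-lineage cells, 10 with 5 Tac1 UMIs required and 7 centred on the median (Bmp5, Ccn4, Cdk1, Ednrb, Gjb6, Rab3a and Sox9). Reversed log2 ratios were those of Agr3 at -0.0057 with 2 Tac1 UMIs after thinning, -0.14 without other-lineage cells and -0.067 with narrower lists; of Mia at -0.44 without the Ramp3 and Cnmd limits and -0.090 without other-lineage cells; and, without other-lineage cells, of Epyc at -0.12, Gcg at -0.16 and S100b at -0.0055. Epyc and S100b are themselves genes of the epithelium and glia lists, so their values without other-lineage cells are partly set by the exclusion. No paired analysis was possible because each age has 1 library, and for the same reason no replicate could be left out. Depth limits genes with few UMIs most, and a gene at 0 UMIs in the Tac1 cells may lie up to 0.343 CPM at P1 and 0.437 CPM at P7.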

Other observations

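Genes of the Y chromosome were lower at P7 in the Tac1 cells and in all kept cells. Eif2s3y was at 67.4 CPM in Tac1 cells at P1 and 5.68 CPM at P7, and in all kept cells at 67.7, 8.94 and 99.3 CPM at P1, P7 and P14. Kdm5d was at 12.9, 1.20 and 44.0 CPM in the kept cells of the same libraries. Ddx3, under which symbol the matrices list a gene with the same course, was at 39.1 and 1.75 CPM in Tac1 cells. The sex of the pooled animals of each age is not given in the sample labels.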
